A study of Mus musculus with 6 samples.

Results

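Ccl17, Ccl22 and Ccr4 encode a pair of chemokines and the receptor that both of them bind. The 3 genes were taken by symbol from a table of 23946 genes, and each was expressed, meaning that it reached an FPKM (fragments per kilobase and per 1000000 aligned reads) of 1 in at least 1 library, as it did for 13064 genes in all. The libraries were made from CD45+CD11b+F4/80+ cells, sorted as macrophages from the omentum (OM) and from the mesenteric adipose tissue (MY) of female C57BL/6 mice aged 6 to 8 weeks. Cells were taken from naive mice (0h), and 24 h and 7 d after intraperitoneal injection of ID8, a mouse ovarian cancer line of the same background. Each of the 6 conditions had 1 library. By the methods, the omenta of 9 mice were handled as 3 groups of 3, and the pooling of mesenteric tissue is not described. The study's reporting summary gives an n of 3 for the sequencing, with 3 omenta counted as 1, but the deposited values hold 1 library per condition. The omental and the mesenteric library of a time may come from the same animals. No spread between replicates could be measured, no p-value is given, and every difference below describes 2 libraries. The methods describe parallel control mice given saline, but the 0h libraries are labelled as naive and normal, and none is labelled as saline-injected. In these libraries the injection itself and the ID8 cells therefore cannot be told apart.

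CCL17 and CCL22 are small secreted CC chemokines that attract cells bearing CCR4, a G protein-coupled receptor. CCR4 is best known on regulatory T cells, type 2 helper T cells and T cells that home to skin. The ligands are made mainly by dendritic cells and by macrophages exposed to type 2 cytokines, and CCL22 is the stronger activator of the receptor.

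The 2 ligand genes are neighbours. In the NCBIM37 assembly (mm9, the build of the deposited values) with GENCODE M1 annotation, Ccl22 (ENSMUSG00000031779.3) spans positions 97269490 to 97275599 of chromosome 8, plus strand, and Ccl17 (ENSMUSG00000031780.1) 97334353 to 97335935 on the same strand. The coding transcript of each has 3 exons, 2216 bases in all for Ccl22 and 513 for Ccl17. Cx3cl1, the gene of the chemokine fractalkine, stands in the 58753 bases between them. Ccr4 (ENSMUSG00000047898.5) lies on the minus strand of chromosome 9 from 114399434 to 114405662, with 2 exons.

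The upstream sequences of the ligand genes are shown because the genes share a locus and a receptor but had different levels across these libraries. The sequences come from the RefSeq promoter table (GRCm38.p6), and each matched the NCBIM37 assembly exactly once. The Ccl17 stretch, chr8:97334103-97334352 on the plus strand of NCBIM37, covers the 250 bases before the start site. Its capitals mark a match to the STAT6 form, TTC and GAA with 4 bases between them (STAT6 acts downstream of IL-4), and a match to the general STAT form, TTC and GAA with 3 bases between. Both patterns read the same on either strand. The Ccl22 stretch, chr8:97269334-97269489, ends where the annotated gene begins, and its capitals mark 2 matches, both on the minus strand, to a loose form of the NF-kappaB site, GGG and CC with 5 bases between.
Ccl17: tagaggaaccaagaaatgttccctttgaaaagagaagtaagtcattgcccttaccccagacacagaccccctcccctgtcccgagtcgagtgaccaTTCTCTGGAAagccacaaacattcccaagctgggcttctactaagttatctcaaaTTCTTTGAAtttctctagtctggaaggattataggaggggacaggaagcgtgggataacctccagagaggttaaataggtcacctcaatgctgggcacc
Ccl22: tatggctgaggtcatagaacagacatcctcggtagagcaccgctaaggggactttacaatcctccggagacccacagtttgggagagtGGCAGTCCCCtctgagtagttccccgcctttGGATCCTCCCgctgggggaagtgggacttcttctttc
Among 32851 RefSeq promoter windows of 300 bases, 6.95% held the STAT6 form, 8.3% the general STAT form and 50.8% the NF-kappaB form, searched on both strands. The STAT6 form began 154 bases before the start site of Ccl17 and the general form 99 bases before it. Neither STAT form was found in the windows of Ccl22 and Ccr4, and the NF-kappaB form was not found in those of Ccl17 and Ccr4. A match is only a run of letters and says nothing on binding in these cells.

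The sort was checked first. All 10 genes of a macrophage list (among them Emr1, the gene of F4/80, Itgam, Csf1r and the C1q genes) stood at an FPKM of at least 1 in each library. Their summed FPKM was 2256, 13220 and 1323 in the omentum (naive, 24 h and 7 d) against 1405, 3490 and 1629 in the mesentery. Markers of other cells were present as well. The 5 B cell genes summed to between 524.3 and 3967, the 10 T cell genes to between 31.96 and 1514 and the 6 natural killer cell genes to between 13.83 and 1539. The B cell sum was above the macrophage sum in OM 0h (3967 against 2256) and in OM 7d (2447 against 1323). In MY 0h the natural killer cell sum was above it (1539 against 1405). In the other libraries the macrophage sum was the highest of these lists, but in MY 7d narrowly (1629 against 1539 for B cells and 1514 for T cells). The mean log2(FPKM + 1) per gene in MY 7d was 6.1 for macrophages, 7.2 for B cells and 6.62 for T cells. A list of 18 mature dendritic cell genes, described below, summed to more than the macrophage genes in each mesenteric library (3985, 4738 and 3301 in the order of time). Sums over lists of unlike length do not measure cell numbers. In such bulk samples, fewer cells of a type and less RNA per cell cannot be told apart. OM 24h stood apart from the other libraries, with the highest macrophage sum and the lowest T and natural killer cell sums, and the differences at 7 d from naive do not use it. The FPKM of a whole library summed to between 526887 and 713863, and from the step of the lowest values the estimated depth lay between 0.746 and 1.35 times the depth of MY 0h.

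Ccl22 was the member that set the tissues apart. Its omental FPKM was 19.9 in naive mice, 25 at 24 h and 62.7 at 7 d, and its mesenteric FPKM was 199 in naive mice, 317 at 24 h and 256 at 7 d. All mesenteric libraries were above all omental ones, and the lowest mesenteric level was 3.18 times the highest omental level. Of all expressed genes, 17.7% were higher in every mesenteric library than in every omental one, and 2.12% were so by at least 2-fold, as Ccl22 was. On the log2(FPKM + 1) scale used for all differences, Ccl22 differed between omentum and mesentery by -3.27 in the naive libraries, by -3.61 at 24 h and by -2.01 at 7 d.

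Ccl17 was alike in both tissues of naive mice and apart at 7 d. Its omental FPKM was 20.9 in naive mice, 66.6 at 24 h and 111 at 7 d, and its mesenteric FPKM was 21 in naive mice, 58.7 at 24 h and 20.5 at 7 d. The naive libraries of both tissues and MY 7d were at the same level within counting error, their 95% Poisson intervals being 18.6 to 23.4 (OM 0h), 19 to 23.2 (MY 0h) and 18.7 to 22.5 (MY 7d). At 24 h the intervals of 62.9 to 70.6 in OM and 55.6 to 61.9 in MY did not overlap, but the levels differed only 1.14-fold. OM 7d stood alone at the top. These intervals rest on fragment numbers estimated from the FPKM and the transcript length, and they cover counting error only, not the variation between animals. For the short Ccl17 transcript the numbers are least certain and the intervals may be too narrow. The small gap between the tissues at 24 h may therefore not hold.

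**Figure D1:**
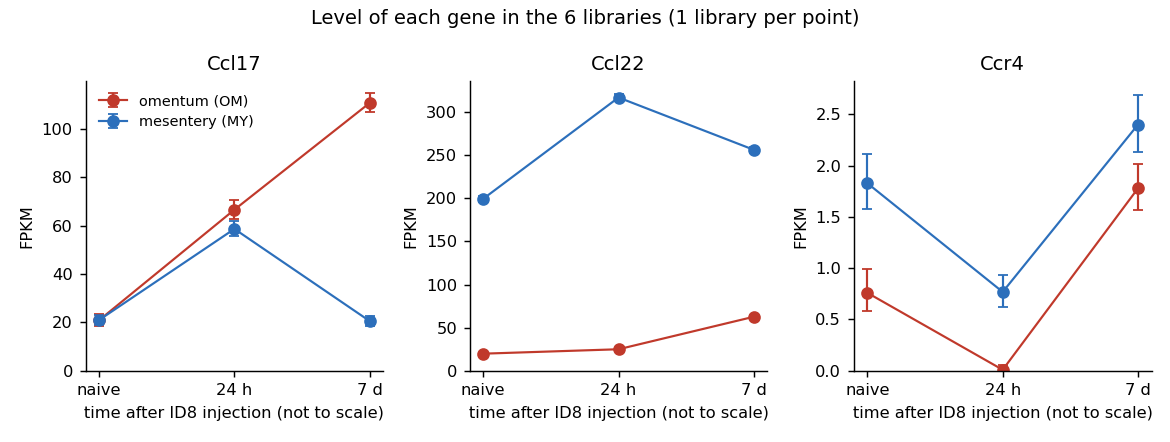
FPKM of Ccl17, Ccl22 and Ccr4 (1 panel each, y axis from 0) in naive mice and 24 h and 7 d after ID8 injection, with 1 library per point, lines joining the libraries of a tissue, and bars for the estimated 95% Poisson counting interval (often smaller than the point). Ccl17 ends at 111 in the omentum and at 20.5 in the mesentery, Ccl22 stays at 199 or above in the mesentery and at 62.7 or below in the omentum, and Ccr4 is lowest at 24 h in both tissues.

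After ID8 injection, the ligands differed from the naive library of their tissue as follows. In the omentum at 24 h, Ccl17 was higher by 1.63 (3.19-fold in FPKM), while Ccl22 was higher by 0.32. Of the 3 genes, 1 was thus at least 2-fold different on the log2(FPKM + 1) scale, where 18.3% of all expressed genes were (11.9% higher and 6.45% lower). In this and the later counts that scale shrinks the low values of Ccr4, which are described below. At 7 d both ligands had passed 2-fold in the omentum, Ccl17 by 2.35 (5.3-fold) and Ccl22 by 1.61 (3.16-fold), or 2 of the 3 genes against 12.9% of all expressed genes (11% higher and 1.96% lower).

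In the mesentery at 24 h, Ccl17 was higher by 1.44 (2.8-fold) and Ccl22 by 0.67 (1.59-fold), and 1 of the 3 genes passed 2-fold against 4.32% of all expressed genes (2.8% higher and 1.52% lower). The difference of Ccl17 was above that of 98.9% of the expressed genes there. At 7 d Ccl17 was at its naive level within counting error, with a difference of -0.03, and Ccl22 was higher by 0.36. None of the 3 genes passed 2-fold, as 2.79% of all expressed genes did (0.498% higher and 2.29% lower). The median difference of all expressed genes lay between -0.01 and 0.02 in these and the tissue comparisons.

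Macrophage genes were higher at 24 h, as Ccl17 was. In OM 24h, 9 of the 10 macrophage genes were at least 2-fold above OM 0h, with a median difference of 2.30. In MY 24h, 7 of 10 were, with a median of 1.30. At 7 d none of the 10 passed 2-fold in either tissue, with medians of -0.53 in OM and 0.18 in MY. When each library was divided by its FPKM of Csf1r, the receptor of the main macrophage growth factor, an alternative added once values were known, the difference of Ccl17 at 24 h became -0.42 in the omentum and 0.11 in the mesentery, and the median of all expressed genes shifted to -1.64 and -1.11. The omental difference of Ccl17 at 7 d stood at 2.72 after the same division, where the median of all expressed genes shifted to 0.31. The part of macrophage content in the 24 h values was not tested.

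From 24 h to 7 d the ligands took different courses. In the omentum Ccl22 was 2.51-fold higher at 7 d than at 24 h (1.29), and Ccl17 1.66-fold higher (0.73). With Ccr4, whose 24 h level rests on about 1 fragment (1.46), 2 of the 3 genes were at least 2-fold different, against 11.5% of all expressed genes (7.03% higher and 4.52% lower). In the mesentery the difference of 7 d from 24 h was -1.47 for Ccl17 and -0.31 for Ccl22. Ccl17 was the 1 of the 3 genes past 2-fold there, against 5.37% of all expressed genes (1.84% higher and 3.54% lower). The changes from naive at 7 d differed between the tissues by 2.38 for Ccl17 and by 1.25 for Ccl22, each larger in the omentum, which could not be tested with 1 library per condition.

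**Figure D2:**
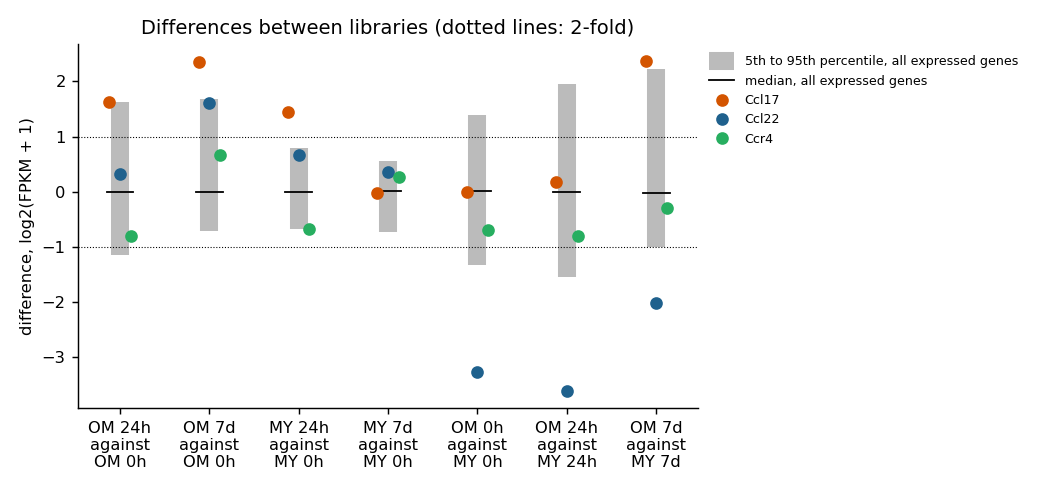
Difference in log2(FPKM + 1) for 7 pairs of libraries, with 1 point per gene, a grey bar from the 5th to the 95th percentile of the 13064 expressed genes, a black line at their median and dotted lines at 2-fold. Ccl22 lies at -3.27, -3.61 and -2.01 in the comparisons of omentum with mesentery, and Ccl17 at 2.35 in OM 7d against OM 0h and at 2.38 in OM 7d against MY 7d.

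Set against the mesentery at the same time, Ccl17 differed by -0.01 in the naive libraries and by 0.18 at 24 h, and stood higher in the omentum by 2.38 (5.39-fold) at 7 d. In the naive libraries 1 of the 3 genes (Ccl22) differed at least 2-fold, against 16.2% of all expressed genes (8.18% higher and 8.05% lower in the omentum). At 24 h it was again Ccl22 alone, against 24.1% (13.9% higher and 10.2% lower). Ccr4 was also lower in the omentum in FPKM, 2.41-fold in the naive libraries and 78.5-fold at 24 h, where it rests on about 1 fragment. It stayed under 2-fold only on the log2(FPKM + 1) scale, which shrinks such low values. At 7 d it was 2 of the 3, with Ccl17 higher and Ccl22 lower in the omentum, against 19.1% (14.1% higher and 4.99% lower). These comparisons share libraries with those over time and are not independent of them.

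The ratio of the ligands differed between the tissues. FPKM is per length, so the ligands may be compared within a library. In the mesentery the level of Ccl22 was 9.51 times that of Ccl17 in naive mice, 5.4 times at 24 h and 12.5 times at 7 d. The omental ratios at the same times were 0.95, 0.375 and 0.566, of which the first was 1 within counting error. Ccl22 thus made up 84.4% to 92.6% of the summed FPKM of the pair in the mesentery and 27.3% to 48.7% in the omentum. Because Ccl17 has a short transcript, its FPKM depends more on the authors' length correction than that of Ccl22. This bears on which side of 1 a ratio falls, and whether it bears alike on all libraries was not tested.

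The sum of the pair was set against that of all chemokine ligands. Their summed FPKM was 40.74, 91.59 and 173.5 in the omentum and 220.5, 375.7 and 276.8 in the mesentery in the order of time. As a share of the FPKM of the 30 expressed chemokine ligand genes, it was 2.05%, 1.75% and 9.6% in the omentum and 8.34%, 13.3% and 18.2% in the mesentery. The sum over the 30 genes was 1986.2, 5224.4 and 1807 in the omentum and 2643.5, 2828.4 and 1517.2 in the mesentery, so the mesenteric share at 7 d also reflects a lower total than in naive mice. Ccl22 ranked second in each mesenteric library, behind Ccl5, a chemokine made by activated lymphocytes. In the omentum, where Ccl6 had the highest level, Ccl22 ranked 15, 20 and 9, and Ccl17 ranked 14, 15 and 4. In the mesentery Ccl17 ranked 9, 5 and 6. Of the 30 ligand genes, 13 were at least 2-fold higher and 5 lower in the omentum than in the mesentery of naive mice, 19 and 3 at 24 h, and 24 and 2 at 7 d, with medians of 0.45, 2.10 and 2.22. Ccl22 had the lowest difference of the 30 in the naive and the 7 d comparison and ranked 28 at 24 h. After injection, 19 of the 30 were higher and 3 lower in OM 24h (median 1.19), where Ccl17 ranked 13 by its difference, and 11 and 2 in OM 7d (median 0.56), where it ranked 3. In the mesentery 5 were higher and 1 lower at 24 h (median 0.17), and 1 and 5 at 7 d (median -0.14).

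**Figure D3:**
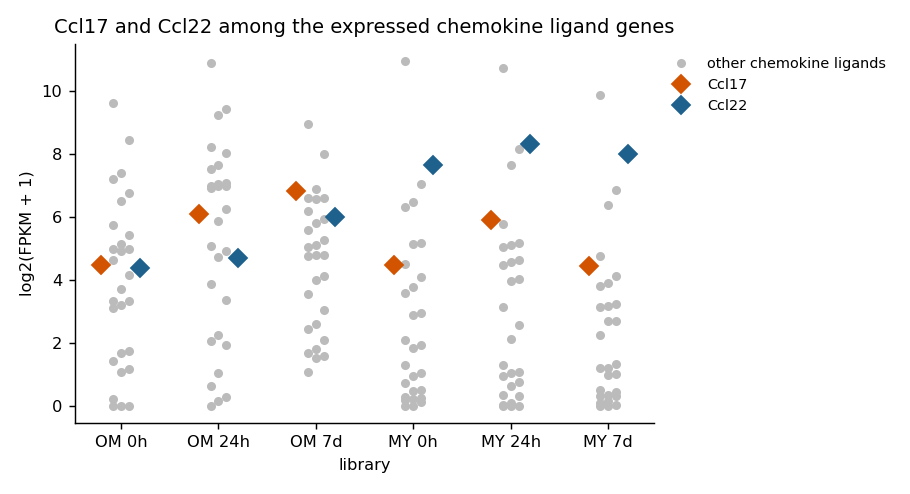
log2(FPKM + 1) of the 30 expressed chemokine ligand genes in each library, with Ccl17 and Ccl22 as coloured diamonds and each other ligand as a grey point. Ccl22 is the second highest ligand in the 3 mesenteric libraries, and Ccl17 is the fourth highest in OM 7d.

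Of 5 other genes of the locus, 1 reached a 2-fold difference. Cx3cl1, which lies between the ligands, stood at an FPKM of 1.25, 3.71 and 7.24 in the omentum (naive, 24 h and 7 d) and 3.25, 4.94 and 3.78 in the mesentery. It was at least 2-fold above OM 0h at both later omental times (1.07 and 1.87). At each of these times 1 of the 5 locus genes thus passed 2-fold, against 18.3% (24 h) and 12.9% (7 d) of all expressed genes. Ciapin1, Coq9, Polr2c and Dok4, which follow Ccl17 on the chromosome, were under 2-fold in all 7 comparisons. Polr2c, a subunit of RNA polymerase II, kept between 38.1 and 50.2 throughout.

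Ackr2 and Ackr1 encode decoy receptors that bind CC chemokines without signalling, and Dpp4 a membrane peptidase that trims CCL22 and thereby weakens its action on CCR4. The omental FPKM of Ackr2 was 14.4 in naive mice, 1.63 at 24 h and 5.80 at 7 d, and the mesenteric libraries did not exceed 0.847. Dpp4 stood at 28.0, 10.6 and 23.1 in the omentum and between 36.6 and 48.1 in the mesentery. Ackr1 did not exceed 2.37.

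Of 20 genes of the route from IL-4, IL-13 and GM-CSF to the ligands, 19 were expressed. In OM 24h against OM 0h, 3 were at least 2-fold higher and 2 lower, with a median of -0.07, and in OM 7d against OM 0h 1 was higher and none lower, with a median of -0.18. In the mesentery 2 were higher and none lower at 24 h, and none was higher and 1 lower at 7 d. Stat6 itself was within 2-fold everywhere, between 68.8 and 92.4. Against the mesentery, 1 was higher and 2 lower in naive mice, 2 and 5 at 24 h, and 1 and 4 at 7 d. Irf4, a transcription factor that GM-CSF and IL-4 induce in myeloid cells, stood at 25.5, 6.54 and 17.6 in the omentum. In the mesentery it stood at 11.1, 6.5 and 13.6, and was thus lowest at 24 h in both tissues. Il4 was low but was the gene that passed 2-fold in OM 7d (1.92), and it also passed in MY 24h (1.61). Its FPKM was 0.133, 0.395 and 3.29 in the omentum and 0.791, 4.48 and 2.23 in the mesentery. Il13 did not exceed 0.0369.

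Genes of alternative activation, which IL-4 induces in macrophages, went in both directions over time. In the omentum 4 of 10 were at least 2-fold higher and 1 lower at 24 h than in naive mice (median 0.42), and 2 were higher and 4 lower at 7 d (median -0.60). In the mesentery 3 were higher and none lower at 24 h (median 0.67), and none was higher and 1 lower at 7 d (median -0.22). Between the tissues, 7 were at least 2-fold higher in the naive omentum than in the naive mesentery and 1 was lower (median 1.92), 8 and 1 at 24 h (median 2.98), and 7 and 0 at 7 d (median 1.78). Retnla, the gene of a secreted resistin-like protein, was at 3681, 2402 and 311 in the omentum in the order of time. Arg1, which encodes arginase, was at 0.463, 213 and 5.62 there and at 1.37, 3.34 and 1.35 in the mesentery. Chil3, which encodes a chitinase-like protein, stood at 157, 555 and 629 in the omentum and at 36.2, 54.0 and 18.1 in the mesentery. Arg1 and Chil3 were thus the 2 that were at least 2-fold higher in OM 7d than in OM 0h, as Ccl17 was. Socs1 was higher by 0.83, under 2-fold.

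Many genes of mature, CCR7-expressing dendritic cells were lower in the omentum, as Ccl22 and all 10 T cell genes were. All 18 on the list had an FPKM of at least 1 in all libraries, and they summed to between 1298 and 1334 in the omentum and between 3301 and 4738 in the mesentery. In the naive omentum against the naive mesentery, 11 of the 18 were at least 2-fold lower and none higher, with a median of -1.60. At 24 h the counts were the same, with a median of -2.25, and at 7 d 9 were lower and 1, Il12b, higher, with a median of -0.83. Ccr7, the receptor that guides dendritic cells to lymph nodes, stood at an FPKM of 93.8, 49.2 and 116 in the omentum and 526, 761 and 661 in the mesentery in the order of time. Fscn1, the actin-bundling protein of mature dendritic cells, had 43.0, 22.4 and 31.5 in the omentum and 759, 400 and 280 in the mesentery. Over time the list and Ccl22 differed more. In OM 24h, 3 of the 18 were higher and 4 lower than in OM 0h (median -0.52), where Ccl22 was at 0.32, and in OM 7d 3 were higher and none lower (median 0.27), where Ccl22 was at 1.61. In the mesentery 1 was higher and none lower at 24 h (median 0.43), and none higher and 1 lower at 7 d (median -0.23). The part of such cells in the level of Ccl22 was not tested, nor was the part of T cells in the level of Ccr7.

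Not all dendritic cell genes took this direction. The list of type 2 conventional dendritic cells was higher in the omentum, with 5 of 7 expressed genes at least 2-fold higher in naive mice and 1 lower (median 1.53). Cd209a, a C-type lectin of these cells and of monocyte-derived cells, stood there at 264 against 11.8. Of the 8 genes of type 1 conventional dendritic cells, 2 were higher and 1 lower in the naive omentum (median -0.04), and of the 5 of plasmacytoid dendritic cells, 2 were higher and 2 lower (median -0.32). Flt3, the cytokine receptor that dendritic cells need, was at 24.6, 10.5 and 17.6 in the omentum and 47.2, 81.5 and 54.8 in the mesentery. On the general list of 7 dendritic cell genes, 2 were higher and none lower in the naive omentum (median 0.30), and Cd74 is listed at 0 in OM 24h but at 11323 or more in all other libraries.

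**Figure D4:**
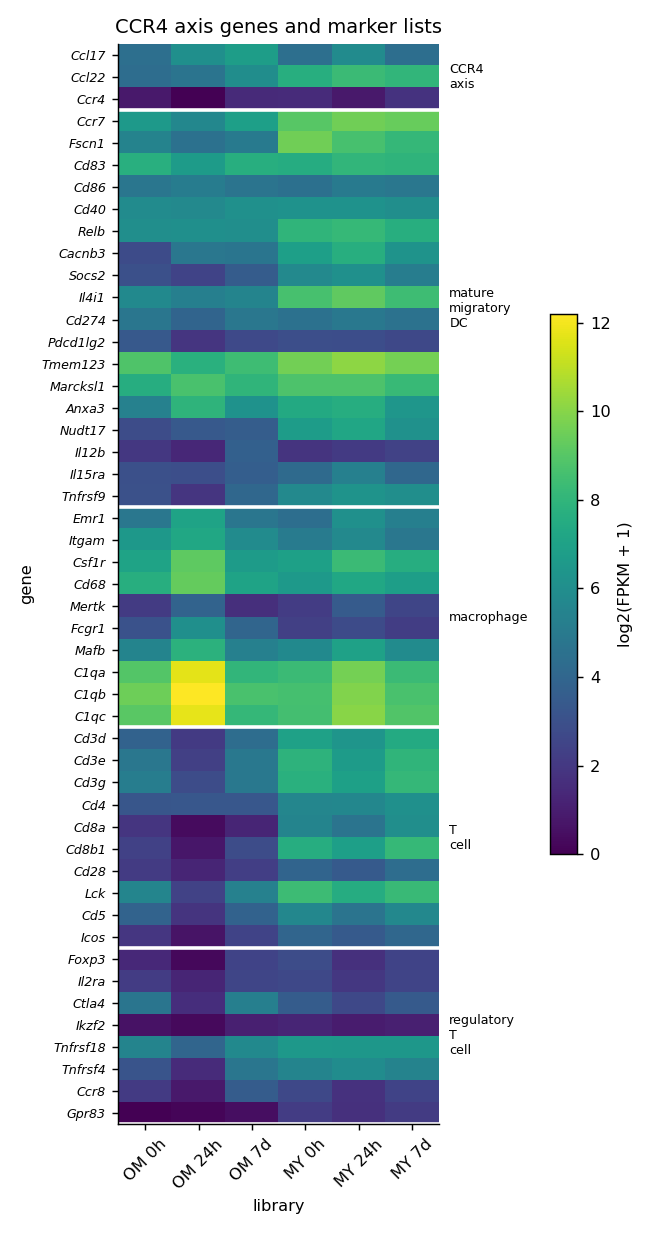
log2(FPKM + 1), as colour, of Ccl17, Ccl22 and Ccr4 and of marker genes of mature dendritic cells, macrophages, T cells and regulatory T cells (rows) in the 6 libraries (columns). Ccr7, Fscn1 and Il4i1 share the mesenteric side with Ccl22, the summed macrophage genes are highest in OM 24h (13220), and the summed T cell genes are lowest there (31.96), as is Ccr4.

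The receptor gene Ccr4 was barely expressed. Its omental FPKM was 0.76 in naive mice, 0.00979 at 24 h and 1.78 at 7 d, and its mesenteric FPKM was 1.83 in naive mice, 0.769 at 24 h and 2.4 at 7 d. Each tissue was lowest at 24 h and highest at 7 d, and at each time the omentum was the lower of the tissues. Among the 17 expressed chemokine receptor genes on the list, Ccr4 ranked between 15 and 17. Ccr2, the receptor that draws monocytes from blood, led in the naive omentum at 137 and in OM 24h at 303, and Ccr7 led in the other 4 libraries. Of the 16 other expressed receptor genes, 4 were at least 2-fold higher and 5 lower in OM 24h (median -0.25), and 2 higher and none lower in OM 7d (median -0.13).

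The value in OM 24h corresponded to about 1 fragment by the step of the low values, against about 59 in naive omentum, 248 in OM 7d and 96 in MY 24h. The ratio of OM 24h to OM 0h was 0.0129, with a 95% counting interval of 0.000345 to 0.0803, and that to MY 24h was 0.0127 (0.000348 to 0.0793). By counting error alone, both intervals lay below 1. On the log2(FPKM + 1) scale, which shrinks such low values, the differences from the naive libraries were -0.80 and 0.66 in the omentum and -0.68 and 0.27 in the mesentery (24 h and 7 d), and none reached 2-fold. In FPKM the ratio to naive was 2.34 in OM 7d, 0.42 in MY 24h and 1.31 in MY 7d. Neighbours in the order of levels could not all be told apart by counting, since the intervals of OM 0h (0.583 to 0.989) and MY 24h (0.619 to 0.934) overlapped, as did those of OM 7d (1.57 to 2.02) and MY 0h (1.58 to 2.11).

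The sum of T cell genes was lowest in OM 24h, as Ccr4 was. The 10 T cell genes summed to an FPKM of 158, 31.96 and 153.4 in the omentum (naive, 24 h and 7 d) and to 1273, 728.9 and 1514 in the mesentery. In OM 24h against OM 0h, 8 of the 10 were at least 2-fold lower, with a median of -1.70. In the comparisons of omentum with mesentery all 10 were lower in the omentum at each time, with medians between -2.69 and -4.18. The differences of Ccr4 were -0.68, -0.81 and -0.29. Cd3e, a chain of the T cell receptor complex, stood at 28.0, 3.98 and 28.4 in the omentum and at 237, 104 and 256 in the mesentery. Cd4, the coreceptor of helper T cells, was not lower at 24 h, with 8.48, 8.79 and 8.77 in the omentum and 47.8, 49.5 and 68.1 in the mesentery. The part of T cell RNA in the level of Ccr4 was not tested.

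Regulatory T cell genes were also low in OM 24h. Of 8, 5 were at least 2-fold lower and none higher in OM 24h, and 3 were higher and none lower in OM 7d, each against OM 0h, with medians of -1.18 and 0.50. Foxp3, the factor that defines these cells, stood at an FPKM of 1.62, 0.19 and 4.5 in the omentum and 6.2, 2.19 and 4.39 in the mesentery. Ccr8, a chemokine receptor of tissue regulatory T cells, had 3.17, 0.777 and 10.8 in the omentum and 5.21, 2.29 and 4.42 in the mesentery. Foxp3 and Ccr8 were lowest at 24 h in each tissue, as Ccr4 was, but not all 8 genes were. Tnfrsf4 was highest at 24 h in the mesentery (44.6, 60.1 and 42.7), and the lowest omental level of Gpr83 was in OM 0h. In MY 24h against MY 0h, 1 of the 8 was at least 2-fold lower and none higher, with a median of -0.57. Type 2 helper and innate lymphoid genes were sparse, with 6 of 9 expressed and 2 of these lower and none higher in OM 24h than in OM 0h. Gata3, the factor that both of these cell types need, ran from 2.1 in OM 24h to 14.6 in MY 0h. Genes of other cells were low in OM 24h as well, where 5 of 6 natural killer cell genes, 5 of 5 B cell genes and 4 of 5 expressed mast cell and basophil genes were at least 2-fold below OM 0h, with Cpa3, Ms4a2 and Mcpt8 listed at 0. Of the platelet list, 2 of 4 genes were expressed and 1 was higher.

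Over the 6 libraries the 3 genes did not move as one. Pearson's r of log2(FPKM + 1) was -0.18 between Ccl17 and Ccl22, -0.33 between Ccl17 and Ccr4 and 0.6 between Ccl22 and Ccr4, as a description over libraries that share tissues and times. Of 7997 other genes that reached an FPKM of 10, those most like Ccl17 were Nampt, Cbr3, Nfix, Trip10 and Rbbp8, with r between 0.97 and 0.99. Those most like Ccl22 were Fndc5, Rnf14, Bcl2l14, Ankrd39 and H2-T9, with r of 0.99. Those most like Ccr4, among 13063 other expressed genes, were Wdhd1, Cd82, Fancd2, Tnfsf11 and Prg2, with r between 0.978 and 0.997. Such values were many over 6 points, as 50 genes exceeded 0.9 with Ccl17, 360 with Ccl22 and 100 with Ccr4. Ccr7 had an r of 0.96 with Ccl22 and ranked 53.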

How the data were processed

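Sorted cells of 6 conditions, 1 library each, were sequenced. The submitters' processing notes name FastQC 0.11.4, STAR 2.4.2a and mm9. By the methods, splice junctions came from a UCSC gene file, and the authors computed the deposited FPKM per gene symbol with Cufflinks. FPKM hold no counts, so no count test was run, and no scaling between libraries was added. The differential test the methods name needs counts and was not used here. From the FPKM, differences in log2(FPKM + 1) were computed for 7 pairs of libraries (Python 3.11.15, numpy 2.4.6, pandas 2.3.3, scipy 1.17.1, matplotlib 3.10.9), which understates changes of low genes. A gene was called expressed where any library reached an FPKM of 1, and a 2-fold difference was counted. What 1 fragment is worth was taken from the commonest low value of FPKM times transcript length (GENCODE M1). It gave approximate fragment numbers and Poisson intervals. The 3 genes and all lists were chosen with earlier results of these data known. Genes named are the 3, up to 4 of each list with the highest level or largest difference, and the 5 most correlated with each of the 3. Others of the lists, such as Cd209a, Stat6, Irf4, Flt3 and Cd3e, were named after their values were seen. One list entry (Cd301b) matched no symbol. Alternatives were other pseudocounts, filters, scalings, CC ligands alone and rank correlation. With 1 library per condition, how far the 2-fold calls would hold in other animals was not tested. No protein sequences were used.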

Additional observations from a re-analysis of the deposited data

Results flagged for a closer look

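Ccl17 was the 1 gene of the 3 whose difference from naive had opposite signs in the tissues at 7 d, with 2.35 in the omentum and -0.03 in the mesentery on the log2(FPKM + 1) scale. The mesenteric value lies within counting error of 0, and the difference between the tissues was not tested, since each condition has 1 library.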

How the results depend on the processing

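No paired analysis was possible because the groups compared share fewer than 2 replicate numbers. For the 3 genes in 7 comparisons, 82 of 87 values from alternatives set with the design moved by less than 1.5-fold, and none changed sign where a 2-fold difference had been called. The 5 that moved were Ccr4 in OM 24h against OM 0h, at -2.97 with a pseudocount of 0.1 and -0.20 with 5, Ccr4 in OM 24h against MY 24h, at -2.98 and -0.20, and Ccl17 in OM against MY, at 0.85 with the mean of the 3 time points. Ccr4 also passed 2-fold with a pseudocount of 0.1 in OM 7d against OM 0h, MY 24h against MY 0h and OM 0h against MY 0h. Rescaling to a sum of 1000000 shifted the median of all expressed genes by up to -0.27 (OM 24h against MY 24h) and brought Ccr4 past 2-fold in the 3 comparisons with OM 24h or OM 0h in which it was lower. Dividing by Csf1r, chosen after seeing the data, moved 12 of 21 values. Ccl17 became -0.42 (OM 24h against OM 0h), 0.11 (MY 24h), -0.67 (MY 7d against MY 0h), -0.65 (OM 24h against MY 24h) and 3.26 (OM 7d against MY 7d). Ccl22 became -1.65 (OM 24h against OM 0h), -0.70 (MY 24h), -0.31 (MY 7d), -4.35 (OM 24h against MY 24h) and -1.12 (OM 7d against MY 7d). Ccr4 became -1.30 (MY 24h) and 0.33 (OM 7d against MY 7d). This division scales the FPKM of all genes of a library alike, but on the log2(FPKM + 1) scale low genes such as Ccr4 shift less. Among CC ligands alone, Ccl17 ranked 9 in OM 0h and Ccl22 12 in OM 24h. The share of expressed genes at least 2-fold different depended on low values. With a pseudocount of 5 it fell to 8.92% (OM 24h against OM 0h), 5.35% (OM 7d), 1.63% (MY 24h), 1.09% (MY 7d), 7.91% (OM 0h against MY 0h), 12.4% (24 h) and 8.99% (7 d). With 0.1 it was 27.6% (OM 24h), 9.51% (MY 24h), 6.98% (MY 7d) and 24.4% (OM 0h against MY 0h). Among genes at an FPKM of 1 in every library it was 6.34% (OM 7d against OM 0h) and 10.3% (OM 7d against MY 7d). Of the 5 genes most like each member, rank correlation kept 0 for Ccl17, 1 for Ccl22 and 0 for Ccr4, and a pseudocount of 0.1 kept 0 for Ccr4. Other causes of these shifts were not tested. The level of Ccr4 in OM 24h rests on about 1 fragment.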

Other observations

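The values in this part were chosen after the data had been seen. Ccl22 was set against genes of the mature dendritic cell list, whose source cells in these mixed samples were not tested. Its ratio to Ccr7 was 0.212, 0.508 and 0.542 in the omentum (naive, 24 h and 7 d) and 0.379, 0.417 and 0.388 in the mesentery. Over the 6 libraries this ratio spanned 2.56-fold where Ccl22 itself spanned 16-fold. Within the mesentery the spans were 1.1-fold and 1.59-fold, and within the omentum 2.56-fold and 3.16-fold. The ratio to Fscn1 spanned 7.56-fold over all libraries, but 3.48-fold within the mesentery and 4.31-fold within the omentum, more than Ccl22 alone. For Ccl17 the ratio to Ccr7 spanned 43.5-fold, more than the 5.39-fold of Ccl17 alone.

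The ratio of Ccr4 to Cd3e was 0.0077, 0.00742 and 0.00939 in the mesentery in the same order, a span of 1.27-fold, where Ccr4 itself spanned 3.12-fold. In the omentum it was 0.0271 in OM 0h and 0.0627 in OM 7d, above all mesenteric values, and 0.00246 in OM 24h, where it rests on about 1 fragment of Ccr4. The ratio of Ccr4 to Cd4 was less even, at 0.0382, 0.0155 and 0.0352 in the mesentery (a span of 2.46-fold) and 0.0897, 0.00111 and 0.203 in the omentum (a span of 182-fold).

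Tnfsf11, the gene of RANKL, a cytokine of T cells and stroma, was the fourth most like Ccr4 over the libraries. Its FPKM was 1.19, 0.162 and 4.45 in the omentum and 3.53, 1.09 and 4.25 in the mesentery in the order of time.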
